A study of Mus musculus with 8 samples.

Results

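Serpins are a large family of proteins that mostly inhibit serine proteases. A serpin offers an exposed loop as bait, and the protease that cuts it is trapped in an inactive covalent complex, so each molecule works once. Members control clotting, the removal of clots by plasmin, complement and the proteases of leukocytes, and some have lost inhibition and serve as hormone carriers or as a chaperone. They are sorted into clades named by letter. The liver makes most of the serpins found in plasma.

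All protein-coding genes whose symbol starts with Serpin were taken from gene count tables of 8 mouse kidneys. They number 61 of the 47643 genes in each table, after 7 Serpin pseudogenes were left out, and the values and counts given here are of 60 of them. The choice rests on the symbol and on no measured value. The family was nevertheless taken up with the genotype difference in these libraries already known, so counts over its members are a description, and an adjusted p belongs to a single gene in the fit across all genes.

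The knockout kidneys came from 4 conditional knockout mice (cKO), labelled Six2-Cre;Cox10-fl/fl, and the controls were 4 kidneys labelled wild type (WT). Cox10 encodes an enzyme needed to make the heme A of cytochrome c oxidase, complex IV of the respiratory chain. Six2-Cre acts in the nephron progenitors, so the deletion is expected in nephron epithelium, while collecting duct, stroma, vessels and blood cells come from other progenitors, and whole kidney was sequenced. Mice were 3 months old, apart from replicate 2 of each genotype at 2.5 months, and the labels do not say whether WT mice carried the Cre or a floxed allele. They give each library as a sample of its own without naming the animal, so p-values measure the spread between these samples.

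The deposited counts summed to between 9454830 and 15838026 per library, and 16157 to 18285 genes had a count. Y-linked reads were absent from 3 of 4 cKO and 1 of 4 WT libraries, so sex and genotype were unevenly crossed. WT 1, the WT library without them, also stood apart from the other 7 on the second principal component, which held 11.2% of the variance. On the first, which held 66.05%, WT 1 lay between the genotypes. Its value there was -18.4, against -51.4 to -46.8 in the other WT libraries and 29.5 to 54.7 in cKO libraries. Cox10 itself had 18.4 ± 5.12 CPM (counts relative to a library size adjusted by TMM, a trimmed mean) in cKO and 20.96 ± 2.47 CPM in WT kidneys (SD, n = 4 each), with an edgeR adjusted p of 0.619. The whole-gene count gives no measure of the floxed stretch alone. Proximal tubule markers, 10 genes, summed to 2969 to 8412 CPM in cKO and 9840 to 15394 CPM in WT libraries, and 4 of them fell, all of which lost their call with a sex term.

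Of the 60 serpin genes, 22 had enough counts for the test. Among these 22, 12 rose in cKO kidneys, 2 fell and 8 were not called. The genes that rose included Serpine2 of the plasminogen system, Serping1 of complement, Serpina10 of coagulation, Serpina3n and the collagen chaperone Serpinh1. Serpinf2, which encodes the plasmin inhibitor alpha-2-antiplasmin, and Serpinc1, which encodes antithrombin, were the 2 that fell. A call is an adjusted p under 0.05 in the edgeR quasi-likelihood test, adjusted by Benjamini-Hochberg over 13829 genes. Over all those genes 9.57% were called higher and 7.14% lower, together 16.7% (13.5% and 3.98% with library size scaling in place of TMM), and the median log2 fold change (cKO over WT) was -0.01, against 1.29 over the 22 serpins. The cKO and WT libraries were fully separated for 13 of the 22, beside 22.6% of all 13829 genes. Among the 22, Serpina3c was under the count filter's level of 0.766 CPM in all 4 WT libraries and passed only through its cKO counts. The filter asks for that level in any 4 libraries. Serpina3n, Serpina10 and Serpina3g reached it in 1, 2 and 3 WT libraries and in all 4 cKO libraries. These genes, the other clade A genes that rose, would thus not have passed on WT counts alone. Serpinc1 reached it in 4 WT libraries and 1 cKO library, so its WT counts carried it through. In whole kidney, fewer cells of a type and less RNA per cell cannot be told apart.

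**Figure D1:**
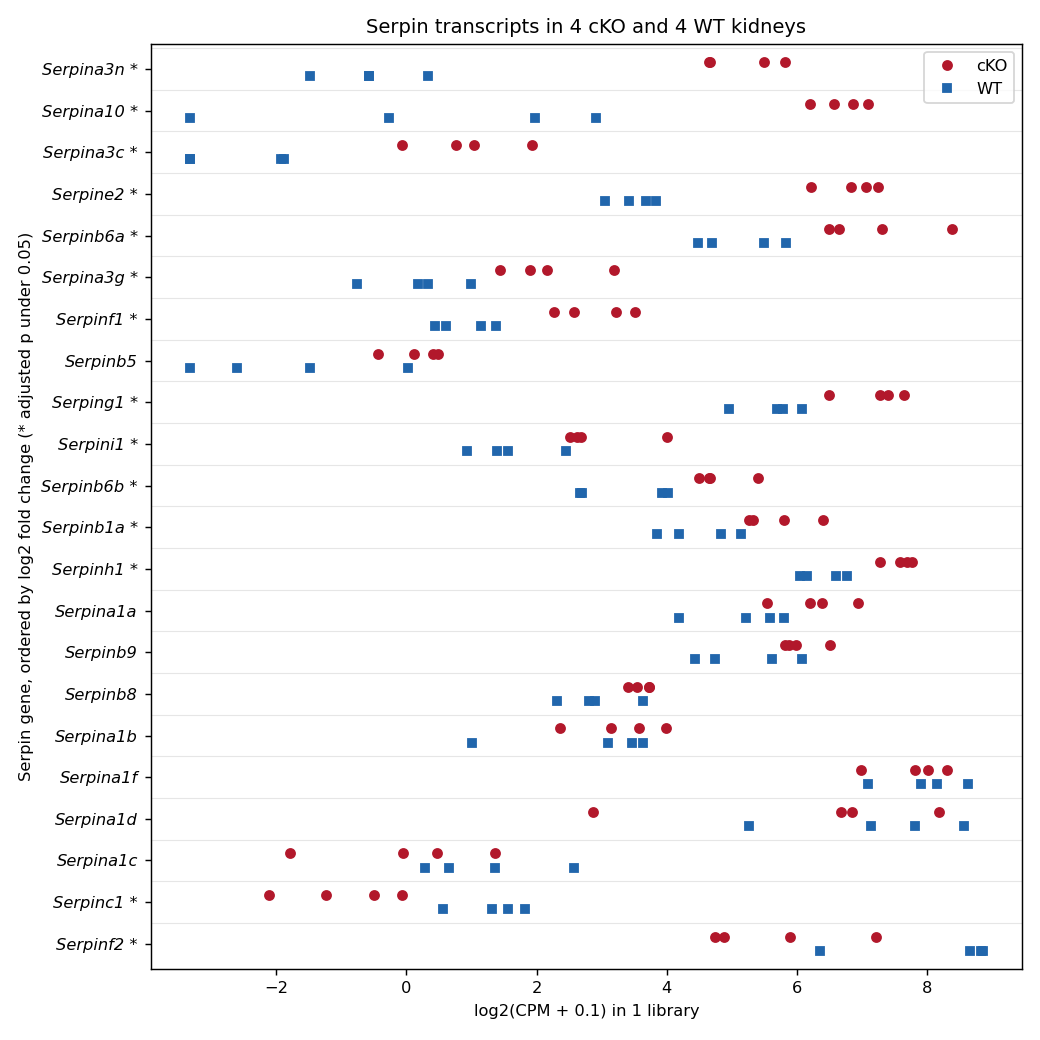
Level of each of the 22 tested serpin genes in every library, as log2(CPM + 0.1) on the horizontal axis, with cKO libraries as red circles above WT libraries as blue squares and genes ordered by log2 fold change. An asterisk marks an edgeR adjusted p under 0.05. Serpina3n, Serpina10 and Serpine2 have wide gaps between the genotypes, and Serpinf2 has 1 WT library far below the other 3.

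Gene lists for other cell types also differed between the genotypes, in both directions. Endothelial markers fell for 3 of 7, with 179 to 306 CPM in cKO and 274 to 407 CPM in WT libraries, and loop and distal tubule markers fell for 2 of 6 and rose for 1, with 1819 to 2829 CPM in cKO and 3229 to 5904 CPM in WT libraries. Collecting duct markers rose for 4 of the 7 tested and fell for 1, with 1301 to 2975 CPM in cKO and 601 to 919 CPM in WT libraries. All 5 of these calls were lost with a sex term. Pericyte and smooth muscle markers rose for 3 of 6, with 373 to 853 CPM in cKO and 154 to 257 CPM in WT libraries. Of 9 fibroblast and matrix markers, 8 rose and 1 fell, and their summed level was 538 to 842 CPM in cKO and 138 to 233 CPM in WT libraries. Of 8 macrophage markers, 7 rose, with 308 to 639 CPM in cKO and 86.4 to 149 CPM in WT libraries. Urothelial markers rose for 5 of 7, with 92.5 to 165 CPM in cKO and 17.1 to 71.2 CPM in WT libraries. Of 6 adipocyte markers, 1 of the 5 tested rose, and the list summed to 63.9 to 362 CPM in cKO and 0.841 to 73.6 CPM in WT libraries. Of 8 liver markers, 1 of the 5 tested rose, and the list summed to 252 to 1601 CPM in cKO and 254 to 423 CPM in WT libraries. Albumin (Alb) had 18.004, 1.09, 15.4 and 2.09 CPM in cKO 1 to cKO 4, against 18.9, 2.76, 3.18 and 4.98 CPM in WT 1 to WT 4. Another liver marker reached 1574 CPM in a cKO library, so Alb is a small part of the sums and does not stand for the list. Of 5 podocyte markers 0 were called, T and NK cell markers rose for 1 of the 5 tested, 1 mast cell marker was tested and not called, and no neutrophil or adrenal cortex marker had enough counts to test. Of the 42 marker calls over these lists and the proximal tubule, 21 remained with a sex term, and the adipocyte and liver calls were among those lost. Of all tested genes 16.7% were called, and 6.8% with a sex term. The part of these cell types in the serpin differences was not tested.

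Serpine2, an inhibitor of plasminogen activation, was far higher in cKO kidneys. It encodes protease nexin 1, which inhibits thrombin as well as plasminogen activators, and lies on chromosome 1 (mm10, 79794197 to 79861180). It had 74.3, 133, 151 and 113 CPM in cKO 1 to cKO 4, against 14.1, 10.6, 12.7 and 8.21 CPM in WT 1 to WT 4. The genotypes did not overlap, and the log2 fold change was 3.37 (SE 0.28, edgeR adjusted p = 5.16e-05). Means were 118 ± 32.9 CPM in cKO and 11.4 ± 2.59 CPM in WT kidneys (SD, n = 4 each). Serpine3, of the same clade, had 0 counts in all 8 libraries.

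The 250 bases upstream of the Serpine2 start are shown because Serpine2 was, like Serpina3n, called under all 21 alternative settings, and its window is the most GC-rich of the windows printed here, at 78.8% G or C. The window is chr1:79858666-79858915, minus strand, from RefSeq on build GRCm38.p6, printed 5′ to 3′ and ending at the base before the RefSeq start. That start is not the start of the GENCODE gene span given above, and the whole window lies inside that span. Capitals, here and in the windows printed for other genes, mark matches on either strand to 10 short motifs.
Serpine2: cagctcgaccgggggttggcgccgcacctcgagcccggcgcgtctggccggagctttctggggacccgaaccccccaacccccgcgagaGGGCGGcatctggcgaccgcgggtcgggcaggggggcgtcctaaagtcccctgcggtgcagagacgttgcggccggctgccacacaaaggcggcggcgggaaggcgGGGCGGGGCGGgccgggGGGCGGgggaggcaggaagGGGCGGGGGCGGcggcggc
The 6 matches in this window are all to the Sp1 motif GGGCGG, and a pair of them share a base. That motif is found in 32.7% of the 32851 RefSeq windows of this length. The other motifs were AP-1 TGAGTCA (4.46% of windows), STAT TTCNNNGAA (7.02%), the TATA box motif (TATAAA, 12.4%), SMAD CAGACA (17.1%), ATF4 TGATGNAAT (0.816%), heat shock GAANNTTC (6.69%), the androgen receptor motif AGAACA (16.1%) and CCAAT (33.8%). HNF4 CAAAGTCCA (0.384%) was searched as well and matched 0 serpin windows. Windows were found for 52 of the 60 members. A match describes the letters and does not show binding.

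The plasminogen activators that this inhibitor acts on were not called at the transcript level. Plau, the gene of urokinase, had 414, 363, 301 and 345 CPM in cKO 1 to cKO 4, against 617, 446, 403 and 463 CPM in WT 1 to WT 4 (log2 fold change -0.44, edgeR adjusted p = 0.217). Plat, the gene of tissue plasminogen activator, had 69.2 ± 16.7 CPM in cKO and 51.0 ± 26.2 CPM in WT kidneys (SD, n = 4 each), with an edgeR adjusted p of 0.368. Both were named after their values were seen, since neither was called. Per kilobase of exon, the ratio of Serpine2 to Plau was 0.0513, 0.105, 0.143 and 0.0938 in cKO 1 to cKO 4, against 0.00655, 0.00676, 0.00902 and 0.00507 in WT 1 to WT 4. Transcripts of the inhibitor were below those of urokinase in every library, and the ratios of the genotypes did not overlap.

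Serpini1 encodes neuroserpin, an inhibitor of tissue plasminogen activator best known from neurons. It had 6.35, 15.9, 5.62 and 6.07 CPM in cKO 1 to cKO 4, against 2.85, 5.40, 1.796 and 2.52 CPM in WT 1 to WT 4. The groups were separated by a small margin, between cKO 3 and WT 2, and cKO 2 was far above the other cKO libraries. Its log2 fold change was 1.44 (SE 0.43, edgeR adjusted p = 0.0422), and the call was lost when any of WT 1, WT 3, WT 4, cKO 2 or cKO 4 was left out, with adjusted p-values up to 0.116. Serpini2 had 0 counts in every library.

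The 2 genes of clade F differed in opposite directions. Serpinf2 encodes alpha-2-antiplasmin, the direct inhibitor of plasmin, and Serpinf1 encodes pigment epithelium-derived factor, which does not inhibit proteases and is known for restraining vessel growth. They lie on the minus strand of chromosome 11, Serpinf1 at 75409769 to 75422701 and Serpinf2 at 75431732 to 75439591, with 9.03 kb between them.

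Serpinf2 had 59.4, 29.2, 148 and 26.6 CPM in cKO 1 to cKO 4, against 81.5, 404, 452 and 462 CPM in WT 1 to WT 4. WT 2, WT 3 and WT 4 were far above all cKO libraries, and WT 1 lay below cKO 3, so the groups overlapped. Its log2 fold change was -2.41 (SE 0.66, edgeR adjusted p = 0.0324). The call was lost without WT 2, WT 3, WT 4, cKO 1, cKO 2 or cKO 4, with adjusted p-values up to 0.102.

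The libraries without Y-linked reads were the low ones within each genotype. In cKO 1, cKO 2 and cKO 4 Serpinf2 had 26.6 to 59.4 CPM against 148 CPM in cKO 3, which had Y-linked reads. In WT 1, without them, it had 81.5 CPM against 404 to 462 CPM in the other WT libraries. In a fit with terms for genotype and Y-linked reads, 16 of all 13829 genes had a called effect of Y-linked reads. Serpinf2 was the single tested serpin among them, at 2.19 on the log2 scale (edgeR adjusted p = 0.0424). In that fit the genotype difference was -1.33 (edgeR adjusted p = 0.0409), smaller than without the sex term and still called. Within the libraries without and with Y-linked reads it was -1.08 and -1.57, neither called, where 1 library stood for 1 genotype in each split.

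**Figure D2:**
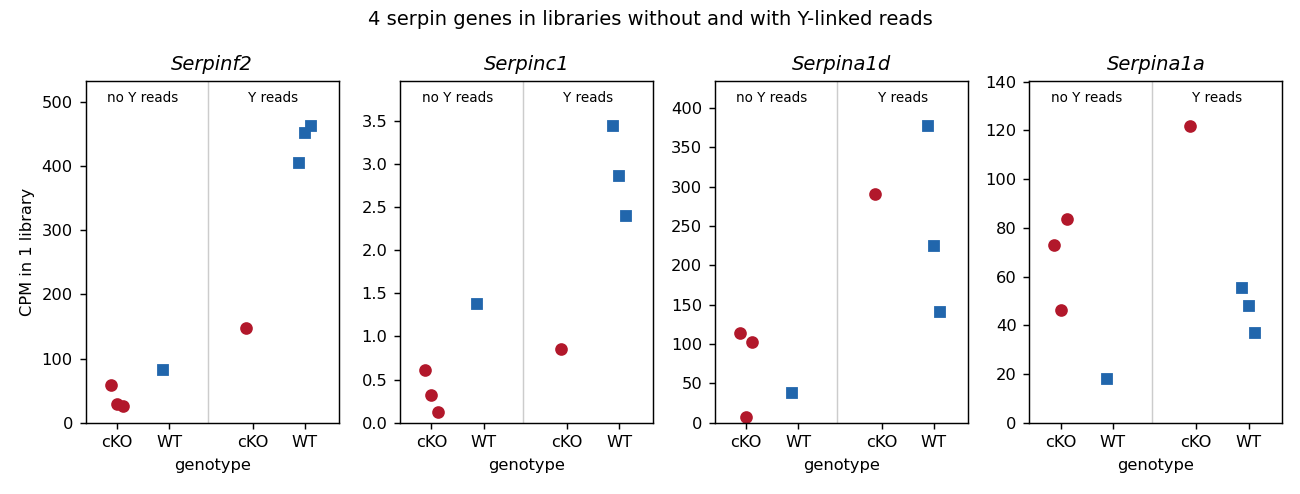
CPM of Serpinf2, Serpinc1, Serpina1d and Serpina1a in every library, in panels split into libraries without Y-linked reads on the left and with them on the right, with cKO (red circles) left of WT (blue squares). For Serpinf2 every cKO library lies below the WT library or libraries of its own panel side, while the pooled groups overlap at 81.5 CPM in WT 1 and 148 CPM in cKO 3.

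Serpinf1 had 4.70, 11.3, 5.83 and 9.20 CPM in cKO 1 to cKO 4, against 2.50, 1.26, 2.12 and 1.42 CPM in WT 1 to WT 4. All cKO libraries were above all WT libraries, and the log2 fold change was 2.07 (SE 0.37, edgeR adjusted p = 0.00376). Per kilobase of exon, the ratio of Serpinf1 to Serpinf2 was 0.0779, 0.382, 0.0389 and 0.341 in cKO 1 to cKO 4, against 0.0302, 0.00308, 0.00463 and 0.00303 in WT 1 to WT 4. Serpinf2 was still the more abundant of the pair in all 8 libraries. Its mean level ranked 8 among the 60 serpins in cKO kidneys, at 28.3 CPM per kb, and 1 in WT kidneys, at 151 CPM per kb.

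The upstream windows of this pair are shown because the genes are neighbours on the same strand and differed in opposite directions. Serpinf1 is read from chr11:75422624-75422873 and Serpinf2 from chr11:75439502-75439751, both on the minus strand. Both windows end at RefSeq starts and run partly into the GENCODE gene spans given above.
Serpinf1: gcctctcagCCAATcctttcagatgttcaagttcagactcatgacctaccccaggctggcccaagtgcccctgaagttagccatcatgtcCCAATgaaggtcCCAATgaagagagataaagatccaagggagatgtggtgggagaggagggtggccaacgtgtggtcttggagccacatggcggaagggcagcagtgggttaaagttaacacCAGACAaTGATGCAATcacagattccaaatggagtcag
Serpinf2: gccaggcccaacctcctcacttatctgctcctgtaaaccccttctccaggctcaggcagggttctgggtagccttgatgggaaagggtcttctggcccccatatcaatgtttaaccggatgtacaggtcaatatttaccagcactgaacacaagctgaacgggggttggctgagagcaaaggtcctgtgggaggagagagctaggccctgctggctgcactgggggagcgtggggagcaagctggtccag
The Serpinf1 window held 3 CCAAT matches, 1 SMAD match from 38 to 33 bases before the start and 1 match to the ATF4 motif TGATGNAAT from 31 to 23 bases before it, with no overlap. The Serpinf2 window held 0 matches to the 10 motifs.

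Among the serpins of coagulation, 1 rose and 1 fell. Serpina10 encodes the protein Z-dependent protease inhibitor, which blocks activated factor X, and lies at the start of the chromosome 12 cluster (103614786 to 103631444). It had 73.6, 137, 94.7 and 116 CPM in cKO 1 to cKO 4, against 7.42, 0, 0.735 and 3.82 CPM in WT 1 to WT 4. The WT libraries ranged from no count to 7.42 CPM, all far below the lowest cKO library. Means were 105 ± 27.1 CPM in cKO and 2.99 ± 3.38 CPM in WT kidneys (SD, n = 4 each), and the log2 fold change was 5.10 (SE 0.89, edgeR adjusted p = 0.00668). Per kilobase of exon its mean level ranked 7 among the 60 serpins in cKO and 15 in WT kidneys.

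Serpinc1, which encodes antithrombin, the main inhibitor of thrombin and activated factor X in plasma, was scarce in both genotypes. It had 0.610, 0.326, 0.854 and 0.131 CPM in cKO 1 to cKO 4, against 1.38, 3.44, 2.86 and 2.39 CPM in WT 1 to WT 4. No cKO library reached the lowest WT library. These levels rest on 27 counts in cKO and 118 counts in WT libraries together, and the log2 fold change was -2.34 (SE 0.52, edgeR adjusted p = 0.0123). With a sex term it was -1.82 and no longer called (edgeR adjusted p = 0.0625). Of its 8546 exon bases, 2942 overlap Zbtb37 on the opposite strand, and the strand setting of the counting is not given in the sources used here. Zbtb37 had 2.03 ± 0.851 CPM in cKO and 4.27 ± 2.34 CPM in WT kidneys (SD, n = 4 each, edgeR adjusted p = 0.131). Serpind1, which encodes heparin cofactor II, had too few counts to test, with 21 in cKO and 15 in WT libraries.

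Serping1 encodes C1 inhibitor, which blocks the complement proteases C1r and C1s as well as plasma kallikrein, and lies on chromosome 2 (84765387 to 84775444). It had 90.2, 200, 154 and 169 CPM in cKO 1 to cKO 4, against 51.5, 67.6, 54.9 and 31.0 CPM in WT 1 to WT 4. The lowest cKO library was above the highest WT library, and the log2 fold change was 1.58 (SE 0.30, edgeR adjusted p = 0.00511). Per kilobase of exon, Serping1 exceeded C1s1, the gene of its target C1s, in every library. The ratio was 6.87, 7.04, 9.65 and 9.20 in cKO 1 to cKO 4, against 5.36, 8.26, 4.38 and 5.30 in WT 1 to WT 4, so the groups overlapped.

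Serpinh1 encodes the collagen chaperone of the endoplasmic reticulum (HSP47), which binds folded procollagen and inhibits no protease. It had 155, 192, 206 and 217 CPM in cKO 1 to cKO 4, against 109, 96.8, 71.0 and 66.2 CPM in WT 1 to WT 4. The groups did not overlap, and its log2 fold change, 1.17 (SE 0.23, edgeR adjusted p = 0.00608), was the smallest among the serpins that rose. Its main client, type I collagen, differed more. Per kilobase of exon, the ratio of Serpinh1 to Col1a1 was 5.68, 8.64, 4.96 and 4.32 in cKO 1 to cKO 4, against 40.4, 34.3, 9.69 and 16.8 in WT 1 to WT 4. There was thus less chaperone transcript per collagen transcript in every cKO library than in any WT library, and the same held for Col3a1, with ratios of 2.85 to 4.67 in cKO and 8.77 to 18.9 in WT libraries.

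**Figure D3:**
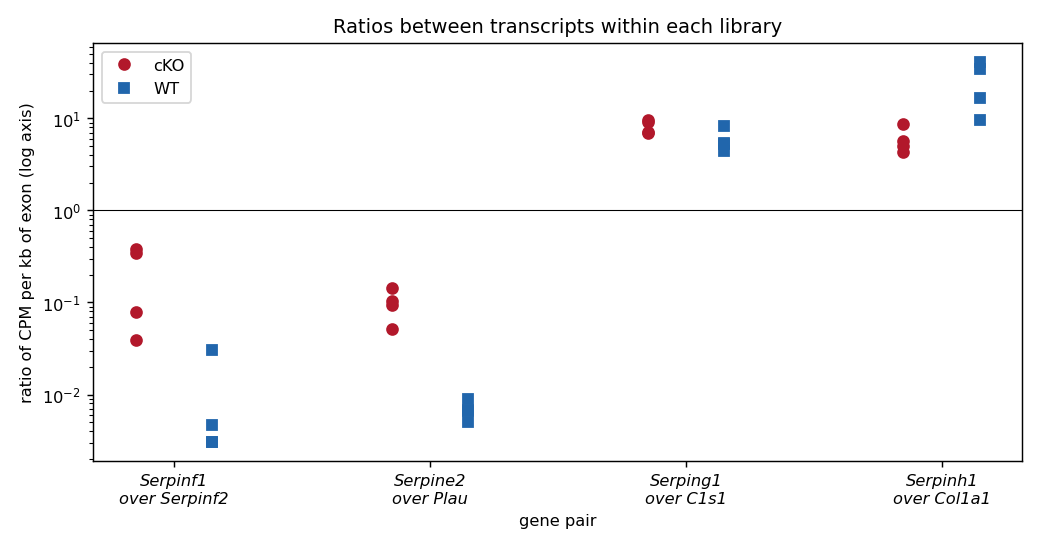
Ratio of a serpin transcript to a partner transcript in each library, both in CPM per kilobase of exon, on a log axis, with cKO libraries (red circles) left of WT libraries (blue squares). The horizontal line marks equal levels. The ratios to Serpinf2 and Plau are higher in cKO libraries, that of Serpinh1 to Col1a1 is lower in cKO libraries, and that of Serping1 to C1s1 overlaps.

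Clade A has 24 members, and 23 of them lie in a cluster of 800 kb on chromosome 12 (103614786 to 104414329). Of the 9 tested, 4 rose and 0 fell, namely Serpina10 described above and 3 genes of the Serpina3 group. The alpha-1-antitrypsin genes between them were not called. Serpina3n was among the lowest tested serpins in WT kidneys and changed most.

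Serpina3n encodes a mouse relative of alpha-1-antichymotrypsin, a secreted inhibitor of leukocyte proteases that is known as an acute phase gene (104406729 to 104414329, plus strand). It had 25.2, 56.1, 24.9 and 45.0 CPM in cKO 1 to cKO 4, against 0.259, 0.574, 0.572 and 1.16 CPM in WT 1 to WT 4. The lowest cKO library was far above the highest WT library. Means of 37.8 ± 15.4 CPM in cKO and 0.642 ± 0.378 CPM in WT kidneys (SD, n = 4 each) gave a log2 difference of 5.80 (SE 0.45, edgeR adjusted p = 5.09e-05). It was the largest log2 fold change among the 22 tested serpins.

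Serpina3c had 1.59, 3.70, 0.854 and 1.96 CPM in cKO 1 to cKO 4, against 0.173, 0, 0.163 and 0 CPM in WT 1 to WT 4. This rests on 102 counts in cKO and 4 in WT libraries, with no overlap between the groups, and the log2 fold change was 4.42 (SE 0.78, edgeR adjusted p = 0.00365). Serpina3g, which in mouse lymphoid cells inhibits cathepsins that leak from lysosomes, had 3.64, 2.61, 8.98 and 4.37 CPM in cKO 1 to cKO 4, against 1.90, 1.03, 0.490 and 1.16 CPM in WT 1 to WT 4. Its groups were also apart, and the log2 fold change was 2.09 (SE 0.48, edgeR adjusted p = 0.0143). The Serpina3 genes are close copies that can share reads. Summed over the 10 of them, cKO libraries had 33.2, 67.8, 36.6 and 53.5 CPM and WT libraries 2.85, 1.61, 1.31 and 3.53 CPM, with a log2 fold change of 4.33 (edgeR adjusted p = 6.80e-05).

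The upstream windows of Serpina3n and Serpina3c are shown because both genes rose and the sequences are near copies of each other, with 229 of 247 aligned bases identical (92.7%). Serpina3n is read from chr12:104406458-104406707 on the plus strand and Serpina3c from chr12:104153873-104154122 on the minus strand.
Serpina3n: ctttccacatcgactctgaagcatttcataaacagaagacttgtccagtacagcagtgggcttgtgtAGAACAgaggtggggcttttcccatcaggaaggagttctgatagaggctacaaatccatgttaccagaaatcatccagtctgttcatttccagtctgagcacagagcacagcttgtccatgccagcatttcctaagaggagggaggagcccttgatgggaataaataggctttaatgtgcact
Serpina3c: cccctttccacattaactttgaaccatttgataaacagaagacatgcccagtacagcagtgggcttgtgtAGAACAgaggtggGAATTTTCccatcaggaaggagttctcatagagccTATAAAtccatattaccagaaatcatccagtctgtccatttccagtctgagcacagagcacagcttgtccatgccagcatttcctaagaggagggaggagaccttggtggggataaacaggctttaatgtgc
Both windows held the androgen receptor motif AGAACA at the same place in the alignment, from 183 to 178 bases before the Serpina3n start. Only the Serpina3c window also held TATAAA and the heat shock motif GAANNTTC. The Serpina3g window aligned with that of Serpina3n over 153 bases, 109 of them identical (71.2%).

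The alpha-1-antitrypsin genes, Serpina1a to Serpina1f, encode inhibitors of neutrophil elastase and their close relatives. None of the 5 tested was called, and the libraries of both genotypes varied widely. Serpina1d had 115, 7.22, 291 and 102 CPM in cKO 1 to cKO 4, against 38.3, 377, 225 and 140 CPM in WT 1 to WT 4. It was lowest in cKO 2, and the groups overlapped throughout (log2 fold change -0.60, 95% interval -2.81 to 1.61, edgeR adjusted p = 0.698). With a sex term the estimate was 0.60 (edgeR adjusted p = 0.758), so no direction can be given.

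Serpina1a had 73.1, 46.2, 122 and 83.6 CPM in cKO 1 to cKO 4, against 18.1, 55.5, 47.9 and 37.0 CPM in WT 1 to WT 4. All cKO libraries except cKO 2 were above all WT libraries (log2 fold change 1.04, SE 0.36, edgeR adjusted p = 0.0685). It was called with a sex term (1.64, edgeR adjusted p = 0.00730), without cKO 2 (1.23, 0.0468), without the 2.5-month pair (1.43, 0.0430), with library size scaling (1.20, 0.0479) and by DESeq2 (1.05, 0.0257). Among libraries without Y-linked reads it had 46.2 to 83.6 CPM in cKO and 18.1 CPM in WT 1, and among those with them 122 CPM in cKO 3 and 37.0 to 55.5 CPM in WT. The log2 fold changes within these subsets were 1.90 and 1.38. The overlap thus lay between the subsets, but 1 library stood for 1 genotype in each, so their lack of overlap is a description only.

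Serpina1f, a more distant gene of the group, had 258, 126, 224 and 316 CPM in cKO 1 to cKO 4, against 395, 285, 239 and 137 CPM in WT 1 to WT 4. The ranges were nearly the same (log2 fold change -0.19, edgeR adjusted p = 0.731). Serpina1b had 8.78, 5.04, 15.7 and 11.8 CPM in cKO 1 to cKO 4, against 1.91, 12.3, 10.9 and 8.48 CPM in WT 1 to WT 4 (0.31, edgeR adjusted p = 0.688). Serpina1c had 0.869, 0.189, 2.46 and 1.29 CPM in cKO 1 to cKO 4, against 1.48, 5.88, 2.47 and 1.12 CPM in WT 1 to WT 4 (-1.09, edgeR adjusted p = 0.264). Serpina1e had too few counts to test. Because reads can be split among Serpina1a to Serpina1e, which are near copies, their single values are uncertain. Their sum was 197, 58.7, 431 and 199 CPM in cKO 1 to cKO 4, against 59.8, 451, 286 and 187 CPM in WT 1 to WT 4, with a log2 fold change of -0.15 (edgeR adjusted p = 0.888).

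The windows of Serpina1a and Serpina1d are shown because these genes were the most abundant of the near copies and had different patterns over the libraries. Serpina1a is read from chr12:103863620-103863869 and Serpina1d from chr12:103773634-103773883, both on the minus strand.
Serpina1a: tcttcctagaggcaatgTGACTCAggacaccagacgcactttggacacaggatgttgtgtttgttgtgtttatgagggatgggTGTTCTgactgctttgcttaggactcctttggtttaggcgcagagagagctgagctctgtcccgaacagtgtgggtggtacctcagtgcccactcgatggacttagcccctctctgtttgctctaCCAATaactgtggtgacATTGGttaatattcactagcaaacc
Serpina1d: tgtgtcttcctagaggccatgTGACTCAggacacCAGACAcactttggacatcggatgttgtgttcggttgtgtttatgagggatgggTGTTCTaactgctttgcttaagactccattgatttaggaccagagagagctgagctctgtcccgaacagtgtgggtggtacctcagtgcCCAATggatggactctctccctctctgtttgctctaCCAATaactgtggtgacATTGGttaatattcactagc
Of 245 aligned bases, 228 were identical (93.1%), and over the 10 pairs among Serpina1a to Serpina1e the identity ran from 92.1% to 98.0%. Both windows held the AP-1 motif read on the opposite strand, 233 to 227 bases before the start in Serpina1a and 229 to 223 in Serpina1d, and both held the androgen receptor motif on the opposite strand and CCAAT on both strands. A SMAD match was present only in the Serpina1d window.

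**Figure D4:**
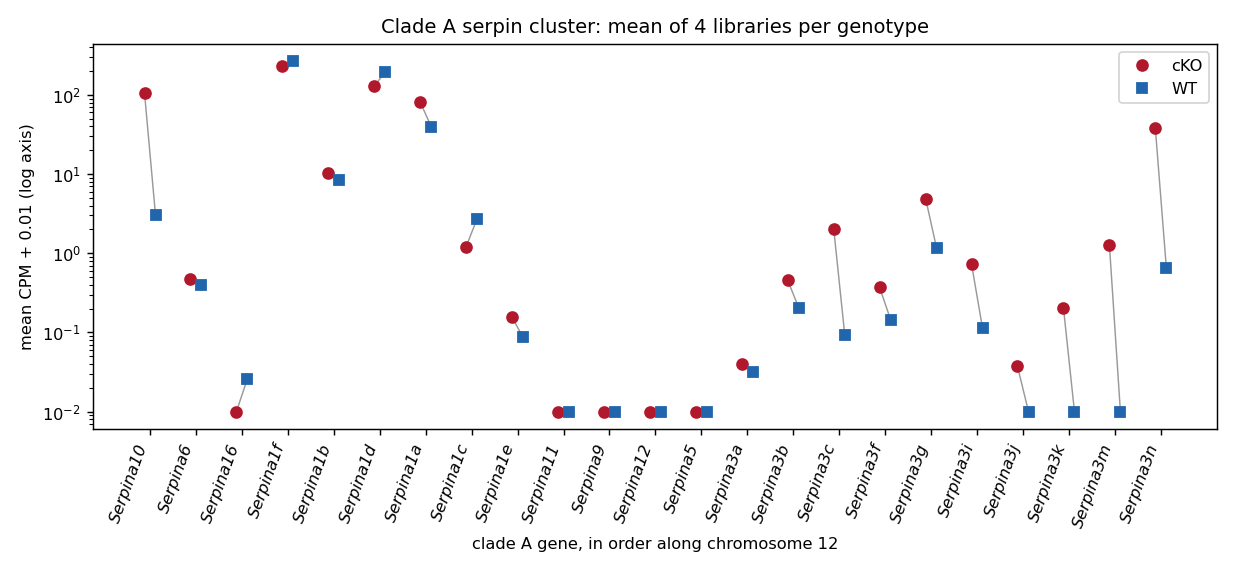
Mean CPM + 0.01 over 4 libraries per genotype on a log axis for the 23 clade A genes of the chromosome 12 cluster, in their order along the chromosome, with cKO (red circles) left of WT (blue squares) and a line joining the genotypes of a gene. Among its tested genes the ends of the cluster, Serpina10 and Serpina3n, show the widest separations, the untested Serpina3m had 0 counts in WT libraries, and Serpina1f, Serpina1b and Serpina1d in between have means near each other.

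Clade B holds 26 members, the ones without a secretion signal that act mostly inside cells. Of the 6 tested, 3 rose and 0 fell, and 15 members had 0 counts in all libraries. All 3 that rose belong to the cluster of 15 genes on chromosome 13 (32842092 to 34002794, 1161 kb), of which 4 were tested. The cluster of 11 on chromosome 1 (106861173 to 107610484, 749 kb) had 2 tested genes and 0 called.

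Serpinb6a, whose human counterpart inhibits cathepsin G, had 89.5, 333, 99.7 and 158 CPM in cKO 1 to cKO 4, against 57.0, 45.0, 25.8 and 22.2 CPM in WT 1 to WT 4. The groups did not overlap, with cKO 2 the highest (log2 fold change 2.18, SE 0.45, edgeR adjusted p = 0.00832). Of its 5409 exon bases, 762 overlap Nqo2, 584 the antisense gene 1110046J04Rik and 241 Ripk1, all on the opposite strand. Nqo2 and Ripk1 were not called (-0.22 and 0.07 on the log2 scale, edgeR adjusted p = 0.421 and 0.823). The antisense gene 1110046J04Rik rose, on 115 counts in cKO and 19 in WT libraries (2.48, edgeR adjusted p = 0.0284). Serpinb6b, its relative in the cluster, had 25.1, 42.0, 22.5 and 25.2 CPM in cKO 1 to cKO 4, against 16.1, 15.2, 6.37 and 6.27 CPM in WT 1 to WT 4. The groups were apart, and the log2 fold change was 1.39 (SE 0.36, edgeR adjusted p = 0.0220). This call was lost without WT 3, WT 4, cKO 2 or cKO 4, with adjusted p-values up to 0.0616, and with a sex term (0.0971).

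Serpinb1a, an inhibitor of neutrophil elastase, had 38.3, 84.6, 55.7 and 39.8 CPM in cKO 1 to cKO 4, against 35.2, 28.5, 14.3 and 18.2 CPM in WT 1 to WT 4. The lowest cKO library was just above the highest WT library, and the log2 fold change was 1.18 (SE 0.33, edgeR adjusted p = 0.0325). The call was lost without WT 3, WT 4, cKO 2, cKO 3 or cKO 4, with adjusted p-values up to 0.0925, and with a sex term (0.113).

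Serpinb9, an inhibitor of granzyme B, had 58.3, 91.3, 63.4 and 56.3 CPM in cKO 1 to cKO 4, against 67.4, 48.8, 26.5 and 21.4 CPM in WT 1 to WT 4. WT 1 lay among the cKO libraries (log2 fold change 0.72, edgeR adjusted p = 0.167), and without it the gene was called (1.06, 0.0339). Serpinb8, on chromosome 1, had 10.5, 13.2, 11.5 and 13.2 CPM in cKO 1 to cKO 4, against 12.3, 7.35, 6.86 and 4.85 CPM in WT 1 to WT 4. Again WT 1 lay within the cKO range (0.62, edgeR adjusted p = 0.148, and 0.93 with 0.0234 without WT 1). Serpinb5, or maspin, an epithelial serpin that does not inhibit proteases, had 1.22, 0.979, 0.640 and 1.31 CPM in cKO 1 to cKO 4, against 0.259, 0.918, 0 and 0.0647 CPM in WT 1 to WT 4 (1.91, edgeR adjusted p = 0.112). Without WT 2, its highest WT library, it was called (3.22, 0.0187).

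**Figure D5:**
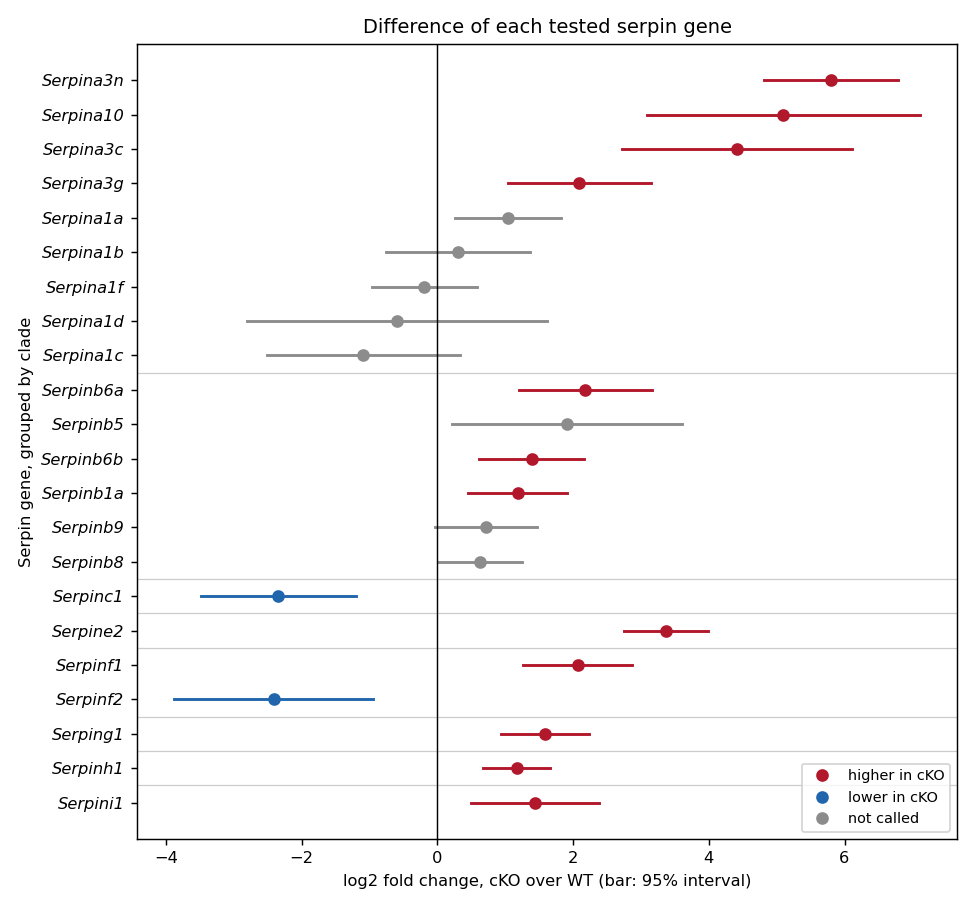
Log2 fold change, cKO over WT, of the 22 tested serpin genes with 95% intervals as bars, grouped by clade from A at the top to I at the bottom. Red points were called higher in cKO, blue points lower in cKO and grey points were not called. Clades E, G, H and I have called rises only among their tested genes, clade F has 1 gene in each direction, and clade C has 1 fall.

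Serpins outside the test were scarce. Of the 38 untested members, 21 had 0 counts in all 8 libraries, and the other 17 had at most 104 counts over the 8 libraries together. Serpina7, which encodes the thyroxine carrier of plasma, was the most abundant of them, with 0.671, 5.66, 0.285 and 2.15 CPM in cKO 1 to cKO 4, against 0.345, 0, 0 and 0 CPM in WT 1 to WT 4. Here cKO 3 was below WT 1. Serpina3m had 0.122, 3.05, 0.285 and 1.63 CPM in cKO 1 to cKO 4, or 59 counts, and 0 counts in WT libraries. Against a floor of 3 counts over the WT group it was at least 17.2-fold higher in cKO kidneys. In a fit with no count filter, Serpina3m, Serpina7, Serpinb6c and Serpinb9b were called higher and 0 of the 17 lower, where 6.32% of all genes were called higher and 4.61% lower. Serpinb6c had 26 counts in cKO and 0 in WT libraries, at least 7.57-fold higher by the same pooled bound. Serpinb9b had 44 counts in cKO and 2 in WT libraries. Serpina6, the cortisol carrier, had 25 counts in cKO and 18 in WT libraries (edgeR adjusted p = 0.913).

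Proteases, their cofactors and receptors, collagen folding genes and other protease inhibitors were read from 8 lists of 128 genes, of which 91 were tested. They are called partner lists here, though not every gene in them is a target or partner of a serpin. Among the 91, 36 rose and 6 fell, beside 9.57% and 7.14% of all tested genes, with a median log2 fold change of 0.70. Of the 42 called, 4 were under 0.766 CPM in every library of 1 genotype, F13a1, Itih4 and Masp1 in WT and Masp2 in cKO libraries. The count filter asks for that level in 4 libraries, so more of the called genes passed through the genotype where they were high. Kng1, Tmprss4, Casp4 and Htra3, for example, reached it in all 4 cKO libraries but not in all WT libraries. Masp1, a lectin pathway protease with 89 counts in cKO and 16 in WT libraries, is named after its values were seen. In the plasminogen system 2 of 7 tested genes rose, Plaur, the urokinase receptor, and Lrp1, which clears serpin and protease complexes. Plaur had 17.4 ± 9.87 CPM in cKO and 3.76 ± 1.18 CPM in WT kidneys (SD, n = 4 each), a log2 fold change of 2.22 (edgeR adjusted p = 0.00597). Plg, the gene of plasminogen, averaged 0.257 CPM in cKO and 0.529 CPM in WT kidneys and was not tested.

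Of 17 coagulation genes tested, 8 rose and 2 fell. F2r, the thrombin receptor, had 63.5, 115, 83.0 and 93.6 CPM in cKO 1 to cKO 4, against 25.9, 32.7, 24.9 and 22.5 CPM in WT 1 to WT 4 (log2 fold change 1.74, edgeR adjusted p = 0.000772). Kng1, which encodes a kininogen, differed most, with 9.58 ± 4.996 CPM in cKO and 0.538 ± 0.219 CPM in WT kidneys (SD, n = 4 each, log2 fold change 4.196, edgeR adjusted p = 0.000407). Kng2, a far more abundant kininogen gene named after its values were seen, was not called. It had 359 ± 42.9 CPM in cKO and 321 ± 99.8 CPM in WT kidneys (SD, n = 4 each, log2 fold change 0.16, edgeR adjusted p = 0.701). Both held fractional expected counts, so reads can be split between them. F13a1, the clot cross-linking factor of macrophages and platelets, rose by 3.69 on the log2 scale, on 175 counts in cKO and 12 in WT libraries (edgeR adjusted p = 0.00210). F13b, the gene of the other factor XIII subunit, is named after its values were seen and fell. It had 46.1 ± 34.7 CPM in cKO and 153 ± 24.8 CPM in WT kidneys (SD, n = 4 each, edgeR adjusted p = 0.0302, and 0.0914 with a sex term). Proc, the gene of anticoagulant protein C, fell to 48.2 ± 16.6 CPM in cKO kidneys, against 158 ± 43.5 CPM in WT kidneys (SD, n = 4 each, edgeR adjusted p = 0.00350).

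Complement C1 and lectin pathway genes rose for 6 of 8 tested, and 1 fell. The C1q chains C1qa, C1qb and C1qc, products of macrophages, rose by 2.19, 2.24 and 2.36 on the log2 scale (edgeR adjusted p = 0.00312, 0.00606 and 0.00210). Masp2, another protease of the lectin pathway, was lower, on 7 counts in cKO and 63 in WT libraries, with 0.131 ± 0.156 CPM in cKO and 1.26 ± 0.377 CPM in WT kidneys (SD, n = 4 each, edgeR adjusted p = 0.00983). The leukocyte granule proteases, the targets of several clade A and clade B serpins, were near absent. Their 14 genes summed to 1.31 to 2.14 CPM in cKO and 0.344 to 0.949 CPM in WT libraries, and 0 were tested.

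Cysteine proteases rose for 5 of 13 tested, among them Ctss, the cathepsin of antigen-presenting cells, with 71.5 ± 10.8 CPM in cKO and 15.5 ± 8.81 CPM in WT kidneys (SD, n = 4 each, log2 fold change 2.21, edgeR adjusted p = 0.00156). Ctsc, which activates granule proteases, rose by 1.61, Ctsk by 2.64 and the inflammatory caspase Casp4 by 3.08 on the log2 scale (edgeR adjusted p = 0.00253, 0.00372 and 0.000953). Of 11 epithelial serine proteases 4 rose, namely St14, Tmprss4, Prss23 and Htra3, by 0.80 to 2.36. Collagen folding genes rose for 4 of 16 tested and fell for 1. Fkbp10, a partner of Serpinh1 in procollagen folding, had 13.4 ± 4.13 CPM in cKO and 3.88 ± 0.537 CPM in WT kidneys (SD, n = 4 each, edgeR adjusted p = 0.00210), and the prolyl hydroxylase P3h2 fell by 1.30 (edgeR adjusted p = 0.0425).

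Other protease inhibitors showed both directions, with 7 of 19 tested higher and 2 lower. Itih4, of the inter-alpha-trypsin inhibitor heavy chain family, rose on 182 counts in cKO and 2 in WT libraries (edgeR adjusted p = 0.000309). Itih3, another heavy chain, rose by 2.41 on the log2 scale, while Itih5 fell by 2.40 (edgeR adjusted p = 0.00195 and 0.00178). Pi16 rose to 23.3 ± 5.41 CPM in cKO kidneys, against 4.51 ± 0.583 CPM in WT kidneys (SD, n = 4 each, edgeR adjusted p = 0.000194). The count of 36 higher genes over the 8 lists was 20 without WT 4 and 22 without cKO 4, where 5.99% and 5.82% of all genes were called higher.

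The serpin calls were compared across sex and library subsets because these were uneven. The direction of the log2 fold change was the same within the libraries without and with Y-linked reads for 20 of the 22 tested serpins and for all 14 that were called in the whole set. Each subset held 1 library of 1 genotype, and a direction shared by both is a description. With a sex term, under which 6.8% of all genes were called, 10 of the 14 calls remained, and Serpinb1a, Serpinb6b, Serpinc1 and Serpini1 lost theirs. Without WT 4 and cKO 4 together, the pair with later sample numbers in the file headers, 3 of the 14 remained, Serpina3c, Serpina3n and Serpine2, where 4.1% of all genes were called. Within the libraries without Y-linked reads 2 serpins were called, with 0.868% of all genes, and within those with them 4, with 3.47%.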

How the data were processed

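The values are gene counts of whole-kidney RNA, read with a stranded kit for polyadenylated RNA per the labels' protocols. The authors deposited RSEM expected counts per Ensembl gene, 1 file per library with no scaling, from reads aligned with STAR to mm10, per the submitters' processing notes. The sources used here name no versions and no strand setting. Near-identical genes can share reads, and 48 of the 60 members reported held whole numbers in all 8 libraries. Symbols and positions come from GENCODE M21, which matched 47224 of 47643 identifiers.

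Expected counts were rounded to whole numbers, filtered with filterByExpr and scaled by TMM. Genotypes were compared over all 13829 genes left with edgeR's quasi-likelihood test (two-sided, robust), with Benjamini-Hochberg adjustment and a threshold of 0.05. Counting error alone underlies the floor of 3 counts, which was taken over a group. Levels between genes are CPM per kilobase of merged exons. These span all annotated exons of a gene and can exceed the length of a single transcript, so ranks and ratios between genes depend on the annotation. Upstream windows come from RefSeq on GRCm38.p6 and end before a RefSeq start, which can differ from the start of the GENCODE gene. Libraries with at least 10 Y-linked counts were taken as having Y-linked reads. R 4.3.3, edgeR 4.0.16, DESeq2 1.42.0, limma 3.58.1, Python 3.11.15, matplotlib 3.10.9, numpy 2.4.6 and pandas 2.3.3 did the work, and the fit was tested on simulated data.

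Of the members, 1 gene is not reported here and is left out of counts and figures. The members and the lists were chosen with earlier results of these data known. Members averaging at least 1 CPM in either genotype are given in every library. From each partner list up to 4 called genes with the smallest adjusted p may be named, or the 2 most abundant tested where 0 passed. Alternatives were RLE and library size scaling, DESeq2, no filter, 1 CPM required in 4 libraries, a replicate block, an age term, a sex term, leaving out each library and leaving out the 2.5-month pair. Leaving out WT 4 and cKO 4, a term for the run of sample numbers, comparisons within libraries with and without Y-linked reads and sums of near-identical genes were added after seeing the data. The comparisons within libraries with and without Y-linked reads came from a fit to all libraries.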

Additional observations from a re-analysis of the deposited data

Results flagged for a closer look

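Among 100 groups of 4 libraries, 9 had a library whose gap to its nearest neighbour was a large part of the group's range (over Dixon's 95% critical value), and chance gives about 1 in 20. 4 of them are serpin values in cKO 2 or WT 1 described above. Serpinb6b had 42.0 CPM in cKO 2, against 22.5 to 25.2 CPM in the other cKO libraries. Serpini1 had 15.9 CPM in cKO 2, against 5.62 to 6.35 CPM in the other cKO libraries. Serpinf2 had 81.5 CPM in WT 1, against 404 to 462 CPM in the other WT libraries. Serpina7 had 0.345 CPM, or 4 counts, in WT 1 and 0 in the other WT libraries, where any count in a single library meets this criterion.

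Among the partner genes, Casp4 had 12.6 CPM in cKO 2, against 5.55 to 6.12 CPM in the other cKO libraries, and St14 had 126 CPM in cKO 4, against 74.4 to 77.9 CPM. WT 1 was high for 3 genes. C1qc had 20.4 CPM there, against 6.08 to 8.02 CPM in the other WT libraries, Ctss had 28.6 CPM, against 10.3 to 12.3 CPM, and P3h3 had 6.73 CPM, against 5.96 to 6.08 CPM. WT 1 was the WT library without Y-linked reads, and what set it apart was not tested.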

How the results depend on the processing

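Of the 14 called serpins, Serpina3n and Serpine2 kept their call in all 21 alternative settings, and none of the 14 changed direction in any of them. RLE, library size scaling, DESeq2 and the age term kept all 14 calls. Library size scaling moved the median log2 fold change of all genes by 0.16.

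Serpins called lower, 2 in the main comparison, were 1 with no count filter, with the replicate block and with the sex term, 1 to 2 when single libraries were left out, and 0 without the 2.5-month pair. Serpins called, 14 with 12 higher, became 3 with 3 higher and 0 lower without WT 4 and cKO 4, 2 with 2 higher and 0 lower within libraries without Y-linked reads, and 4 with 4 higher and 0 lower within those with them. Partner genes called, 42 with 36 higher and 6 lower, became 25 with 21 higher under the sex term, 24 to 49 with 20 to 42 higher and 4 to 7 lower when single libraries were left out, 16 with 13 higher and 3 lower without WT 4 and cKO 4, 1 with 1 higher and 0 lower without Y-linked reads, and 16 with 14 higher and 2 lower with them. Leaving out WT 4 and cKO 4 leaves fewer libraries. The last 2 settings compare genotypes within part of the libraries, in a fit to all of them. Otherwise the cause was not tested.

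Estimates that turned sign were those of genes not called. Serpina1b was -0.027 without WT 1, within -0.027 to 0.54 over the libraries left out in turn. Serpina1d was 0.60 with the sex term, 0.33 without the 2.5-month pair, and 0.97 and 0.23 within libraries without and with Y-linked reads. Serpina1f was 0.0032 with library size scaling, 0.064 without WT 1 and 0.011 without cKO 2, within -0.40 to 0.064 over the libraries left out in turn, 0.048 without the 2.5-month pair and 0.022 within libraries with Y-linked reads. Serpinb8 was -0.0076 within libraries without Y-linked reads, and Cox10 was 0.072 within those with them.

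Correlations between the deviations of same-numbered libraries ran from -0.08 to 0.28, with the highest for WT 2 and cKO 2. Between libraries of different numbers they ran from -0.28 to 0.20. These ranges overlap, so the values do not decide whether same-numbered libraries were pairs. The replicate block kept 13 of the 14 serpin calls, 12 higher, and Serpinf2 had an edgeR adjusted p of 0.0574 under it. The 38 untested serpins each had at most 104 counts over the 8 libraries, and 21 of them had 0 counts. The part of sequencing depth in this was not tested.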

Other observations

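The make-up of the family's reads by clade differed between libraries. Summed over the 60 genes reported, serpins held 1178, 1547, 1713 and 1524 CPM in cKO 1 to cKO 4, against 919.8, 1473, 1204 and 978 CPM in WT 1 to WT 4. Clade F, Serpinf1 and Serpinf2 together, took 5.44%, 2.62%, 8.96% and 2.35% of them in cKO 1 to cKO 4, against 9.13%, 27.5%, 37.7% and 47.4% in WT 1 to WT 4. Serpine2 took 6.31% to 8.82% in cKO and 0.717% to 1.54% in WT libraries. Clade B was highest in cKO 2, at 36.8%, where clade A was lowest, at 25.6%, and the other cKO libraries had 14.8% to 19.4% and 45.1% to 47.8% for these clades.

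Per kilobase of exon, the most abundant serpins in cKO kidneys were Serpina1d at 92.3, Serpinh1 at 78.8, Serpina1f at 72.5 and Serping1 at 65.9 CPM per kb. Without cKO 3 the mean of Serpina1d was 53.6 CPM per kb, below the other three at 77.0, 73.3 and 65.8, and reads can be split between it and its near copies. In WT kidneys they were Serpinf2 at 151, Serpina1d at 140, Serpina1f at 82.9 and Serpinh1 at 35.1 CPM per kb. The ratio of Serpina1d to its near copy Serpina1a per kilobase was 2.06, 0.205, 3.13 and 1.61 in cKO 1 to cKO 4, against 2.78, 8.94, 6.17 and 4.98 in WT 1 to WT 4, so cKO 2 alone held more Serpina1a than Serpina1d.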
